A study of Mus musculus with 18 samples.

Results

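Imprinted genes are transcribed mainly from the copy inherited from 1 parent, and 10 of them were followed here through all 18 arrays of a study of mouse embryonic stem cells (ESCs). The members, chosen by gene symbol, were Peg10, Sgce, Grb10, Rian, Meg3, H19, Igf2, Peg3, Mest and Dlk1. They were 10 of the genes behind 45101 probe sets, and 32 probe sets carried their symbols. A probe set is a group of short probes on an Affymetrix array that reads 1 stretch of a transcript. Of the 10 members, 9 had at least 1 probe set annotated to that gene alone, among 18194 genes with such a probe set. H19 was read only by a probe set shared with the microRNA gene Mir675, so no value is given to H19 itself.

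The study asked how Myc and phosphoinositide 3-kinase (PI3K) signalling act together in the self-renewal of ESCs. All cells were male and of the 129SV background, and each condition below was 1 sample unless stated. Max-null ESCs that overexpress p110 alpha, the catalytic subunit of PI3K, were sampled with doxycycline (Dox) for a time that the labels do not give, and without it. Max-null ESCs, in which Dox ablates expression of the Myc partner Max, were sampled untreated, at day 4 and at day 6 of Dox. EBRTcH3 ESCs overexpressing T58A c-Myc and those overexpressing wild-type c-Myc were sampled untreated and at day 2 and day 5 of LY294002, a PI3K inhibitor. Parental EBRTcH3 ESCs in 2i (inhibitors of MEK and GSK3) were sampled at day 5 of LY294002 and untreated. Parental EBRTcH3 ESCs in serum were sampled at day 5 of LY294002 and untreated in 2 replicates each, and replicate 2 also at day 2. All other lines grew in serum with leukaemia inhibitory factor (LIF). The labels do not say whether a line was 1 clone, nor whether samples came from separate cultures, so p-values measure only the spread between these samples. The description of the untreated T58A sample speaks of N-Myc, so the construct of that line rests on its other labels.

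Background on these genes comes from work in mouse development. Each imprinted cluster has a control region that keeps a methylation mark on 1 parental copy, and proteins such as ZFP57 and the DNA methyltransferases hold that mark in early embryos and ESCs. Meg3 and Rian are long noncoding RNAs expressed from the maternal copy of a cluster whose paternal copy expresses Dlk1, a transmembrane relative of Notch ligands. Igf2 is a paternally expressed growth factor, its neighbour H19 a maternally expressed noncoding RNA, and Grb10 an adaptor that binds the insulin and IGF1 receptors and dampens their signal. Peg10, a protein derived from a retrotransposon and needed for the placenta, and Sgce, a sarcoglycan, are paternally expressed neighbours. Mest, a protein of the hydrolase fold, and Peg3, a zinc finger protein, are paternally expressed as well.

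Values are log2 RMA levels as deposited, so a difference of 1 is 2-fold. Levels of different genes are not set against each other, because probes differ in response. A gene is read on its brightest probe set, and a level of 4.64 (the 40th percentile of all values) was the filter: a gene was tested where at least 2 samples of a fit lay above it. Array medians fell into 2 sets. They were 5.03 to 5.05 in the 4 arrays of parental replicate 1 and parental 2i ESCs and 5.31 to 5.52 in the other 14 arrays, and whether the 4 arrays were normalized apart from the rest is not given in the sources used here. All 10 ESC markers, Pou5f1 and Nanog among them, were above the filter on all 18 arrays. Of 10 fibroblast markers, looked up for feeder cells, 2 to 6 were above it on an array, and Col3a1, Lum and Postn were below it on every array. Max read 6.33 to 7.18 on the 5 arrays of the Max-null lines with or without Dox and 8.17 to 8.71 on the other 13 arrays. Myc read 6.99 in untreated T58A and 7.51 in untreated wild-type c-Myc ESCs, against 9.30 and 7.43 in the untreated parental replicates. Where these probes lie relative to the constructs or the deletion is not given, so these levels do not check the labels. Nothing in an array separates fewer cells of a type from less RNA per cell.

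Among the untreated pairs set against each other here, the largest gap of a member lay between the 2 parental serum replicates, at the maternally expressed noncoding RNAs of chromosome 12. Rian was 10.8-fold lower and Meg3 5.96-fold lower in replicate 1 than in replicate 2. Both lie in the order Dlk1, Meg3, Rtl1, Rian and Mirg in the mouse annotation (GRCm38.p6). Their promoters are shown because these RNAs moved together, and that of Mest because it was the member that passed the test between media. The Grb10 promoter is shown because this member fell under LY294002. The sequences come from RefSeq on GRCm38.p6, from 250 bases before to 50 bases after a transcript start, 5′ to 3′ on the gene's strand. Capitals mark TGCCGC, the hexamer that ZFP57 recognises when it is methylated, or its complement GCGGCA.

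Meg3, chr12:109540746-109541045, plus strand: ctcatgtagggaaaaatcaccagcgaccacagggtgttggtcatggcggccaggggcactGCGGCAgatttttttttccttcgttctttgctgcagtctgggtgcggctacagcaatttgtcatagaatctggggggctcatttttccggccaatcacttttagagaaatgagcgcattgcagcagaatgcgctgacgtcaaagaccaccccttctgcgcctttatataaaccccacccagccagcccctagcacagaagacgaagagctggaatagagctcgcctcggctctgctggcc
Rian, chr12:109603695-109603994, plus strand: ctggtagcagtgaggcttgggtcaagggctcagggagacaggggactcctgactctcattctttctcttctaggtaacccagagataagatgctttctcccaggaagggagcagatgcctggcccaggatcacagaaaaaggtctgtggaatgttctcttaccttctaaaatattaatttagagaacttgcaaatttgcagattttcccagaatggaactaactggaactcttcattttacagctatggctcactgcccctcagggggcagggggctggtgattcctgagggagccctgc
Mest, chr6:30737800-30738099, plus strand: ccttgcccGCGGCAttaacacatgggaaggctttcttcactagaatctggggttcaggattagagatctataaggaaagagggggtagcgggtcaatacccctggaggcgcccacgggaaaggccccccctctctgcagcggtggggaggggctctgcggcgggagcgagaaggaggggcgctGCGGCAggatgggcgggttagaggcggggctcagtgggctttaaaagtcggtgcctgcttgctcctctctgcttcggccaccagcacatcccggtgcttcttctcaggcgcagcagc
Grb10, chr11:12037371-12037670, minus strand: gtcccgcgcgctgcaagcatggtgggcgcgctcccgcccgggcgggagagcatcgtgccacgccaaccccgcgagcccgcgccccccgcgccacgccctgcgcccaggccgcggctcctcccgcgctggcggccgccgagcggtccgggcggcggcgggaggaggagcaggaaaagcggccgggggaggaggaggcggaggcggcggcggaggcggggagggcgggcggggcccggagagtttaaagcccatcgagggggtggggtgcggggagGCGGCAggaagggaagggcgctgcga

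The Grb10 window holds 45 CpG pairs, more than 98.1% of the 32817 mouse promoters of that table, the Mest window 17, the Meg3 window 13 and the Rian window 0. The median over all promoters was 7. On either strand the hexamer occurs once in this Meg3 window, 2 times in the Mest window and once in the Grb10 window, and 11.6% of all promoters hold it. The Myc and Max element CACGTG, found in 7.15% of all promoters, has no match in any of the 14 promoter windows of the 7 members listed there. These matches describe letters only. Meg3 has a second window and Grb10, Mest and Igf2 have further ones that are not printed.

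Rian read 8.75 in untreated parental replicate 1, against 12.19 in untreated parental replicate 2. Only 0.0077% of 12990 genes lay further down in that pair, and the median gene differed by -0.20. Meg3 read 10.41 in replicate 1, against 12.99 in replicate 2, and 0.2% of genes lay further down. Once arrays had been centred on their medians, the differences were -3.26 for Rian and -2.39 for Meg3. All 4 Rian probe sets (-3.44 to -2.33) and all 11 Meg3 probe sets (-3.46 to -1.55) were lower in replicate 1. So were both probe sets of Mirg, the microRNA host transcript next to Rian (-2.39 and -2.11). Dlk1, from the other parental copy of this cluster, read 4.17 in replicate 1, below the filter, against 4.89 in replicate 2. Outside the cluster Grb10 read 10.82 against 12.05 and Peg3 8.75 against 9.82, with replicate 1 again given first. In all, 4 of 8 members differed at least 2-fold in this untested pair, all lower in replicate 1, where 16% of genes did so and 11.2% were lower.

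Low Meg3 and Rian levels marked all 4 arrays of parental replicate 1 and 2i, and every one of the other 14 arrays read higher. Rian read 8.75 and 9.09 in parental replicate 1 and 7.99 and 7.54 in 2i, and 11.23 to 12.96 elsewhere. Meg3 read 10.41 and 10.70 in parental replicate 1 and 10.00 and 9.26 in 2i, and 11.52 to 13.86 elsewhere. On the single probe sets the 4 arrays lay entirely below the rest for 10 of 11 Meg3 and 3 of 4 Rian probe sets, where 20.5% of 25645 probe sets did so. After centring, 7 of 11 and 3 of 4 remained apart in this way, where 7.94% of probe sets did. Dlk1 lay apart too, before and after centring, on its 1 probe set that passed the filter. It read 4.17 to 4.47 in the 4 arrays, below the filter, and 4.88 to 6.21 elsewhere. Dlk1 thus passed the filter only through the other 14 arrays, so its lying apart is not read against these shares. Mirg lay apart on 1 of 2 probe sets, and on 0 of 2 after centring. These 4 arrays are also the set with the lower medians, with a difference of -0.32 between the middle array medians of the sets, so cells and array set cannot be told apart.

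**Figure D1:**
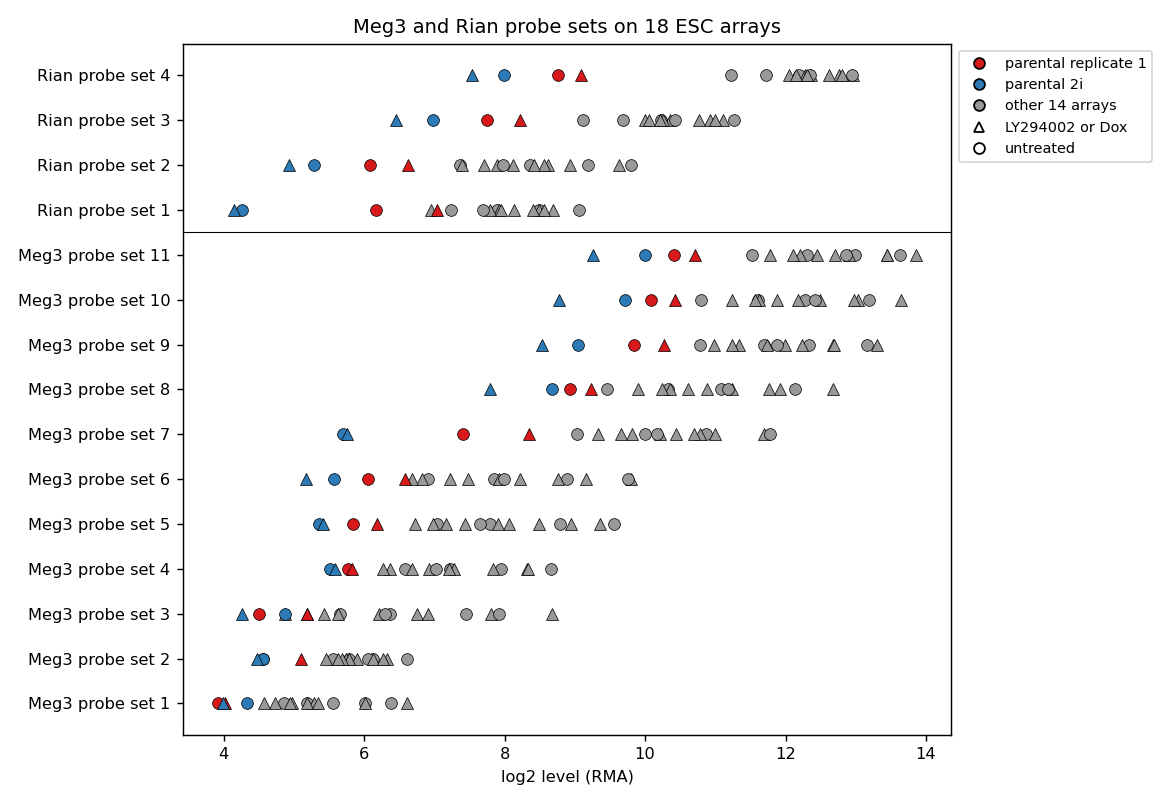
Log2 level (horizontal axis) of the 11 Meg3 and 4 Rian probe sets (vertical axis, ordered by mean within each gene) on 18 arrays. Triangles are arrays with LY294002 or Dox and circles are untreated arrays. Red (parental replicate 1) and blue (parental 2i) points sit at the low end of each row, with the grey points of the other 14 arrays above them in most rows.

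Among the lines on arrays of the upper set, the levels of these RNAs were closer. Meg3 read 11.52 in untreated T58A c-Myc ESCs and 12.31 in untreated wild-type c-Myc ESCs, against 12.99 in untreated parental replicate 2. Rian read 11.23 and 11.72 in those c-Myc lines, against 12.19 in parental replicate 2. The T58A line thus had 1 of 8 members, Meg3, at least 2-fold from parental replicate 2, where 1.78% of genes were, and the wild-type c-Myc line 0 of 9, where 0.768% were. For these single samples no test was possible, and parental replicate 1 differed from replicate 2 by -2.58 in Meg3, more than either c-Myc line did.

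Untreated Max-null lines were set against the untreated EBRTcH3 lines of the same array set. None of 8 members passed (limma, Benjamini-Hochberg adjusted p), where 0.267% of 13131 genes did. The 2 members with an unadjusted p under 0.05 were Rian, higher in the Max-null lines, and Peg3, lower there. Rian read 12.94 in the p110 alpha line and 12.34 in the plain Max-null line, against 11.23, 11.72 and 12.19 in the T58A, wild-type c-Myc and parental lines. The Rian difference was 0.93 ± 0.32 (SE, limma adjusted p = 0.313). Meg3 differed by 0.98 ± 0.44 and Peg3 by -0.45 ± 0.17 (limma adjusted p = 0.43 and 0.346). Without the p110 alpha line, where 1 Max-null array stands alone and only the EBRTcH3 lines give the spread, the Grb10 difference was -1.48 (adjusted p = 0.0108). The plain Max-null line read 10.53 in Grb10, against 11.95 to 12.05 in the 3 EBRTcH3 lines, and the p110 alpha line 12.11. Of 45 other imprinted genes none passed, with Mirg (1.26) and Ddc (1.15) differing most. None of 19 imprint maintenance genes (Tet2 at 0.45 and Dmap1 at 0.38 differed most) and none of 14 insulin and IGF genes (Irs4 at -0.89 and Irs1 at -0.65) passed.

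The 2 untreated Max-null lines differed from each other most in the growth regulators. Grb10 read 12.11 in the p110 alpha line, against 10.53 in the plain Max-null line. Igf2 read 7.07 in the p110 alpha line, against 5.90 in the plain one. These were the 2 of 8 members at least 2-fold apart, both higher with p110 alpha, where 6.12% of genes were that far apart and 1.34% were higher. Sgce read 6.79 against 5.85 and Meg3 13.64 against 12.86 in the same pair, under the 2-fold mark.

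**Figure D2:**
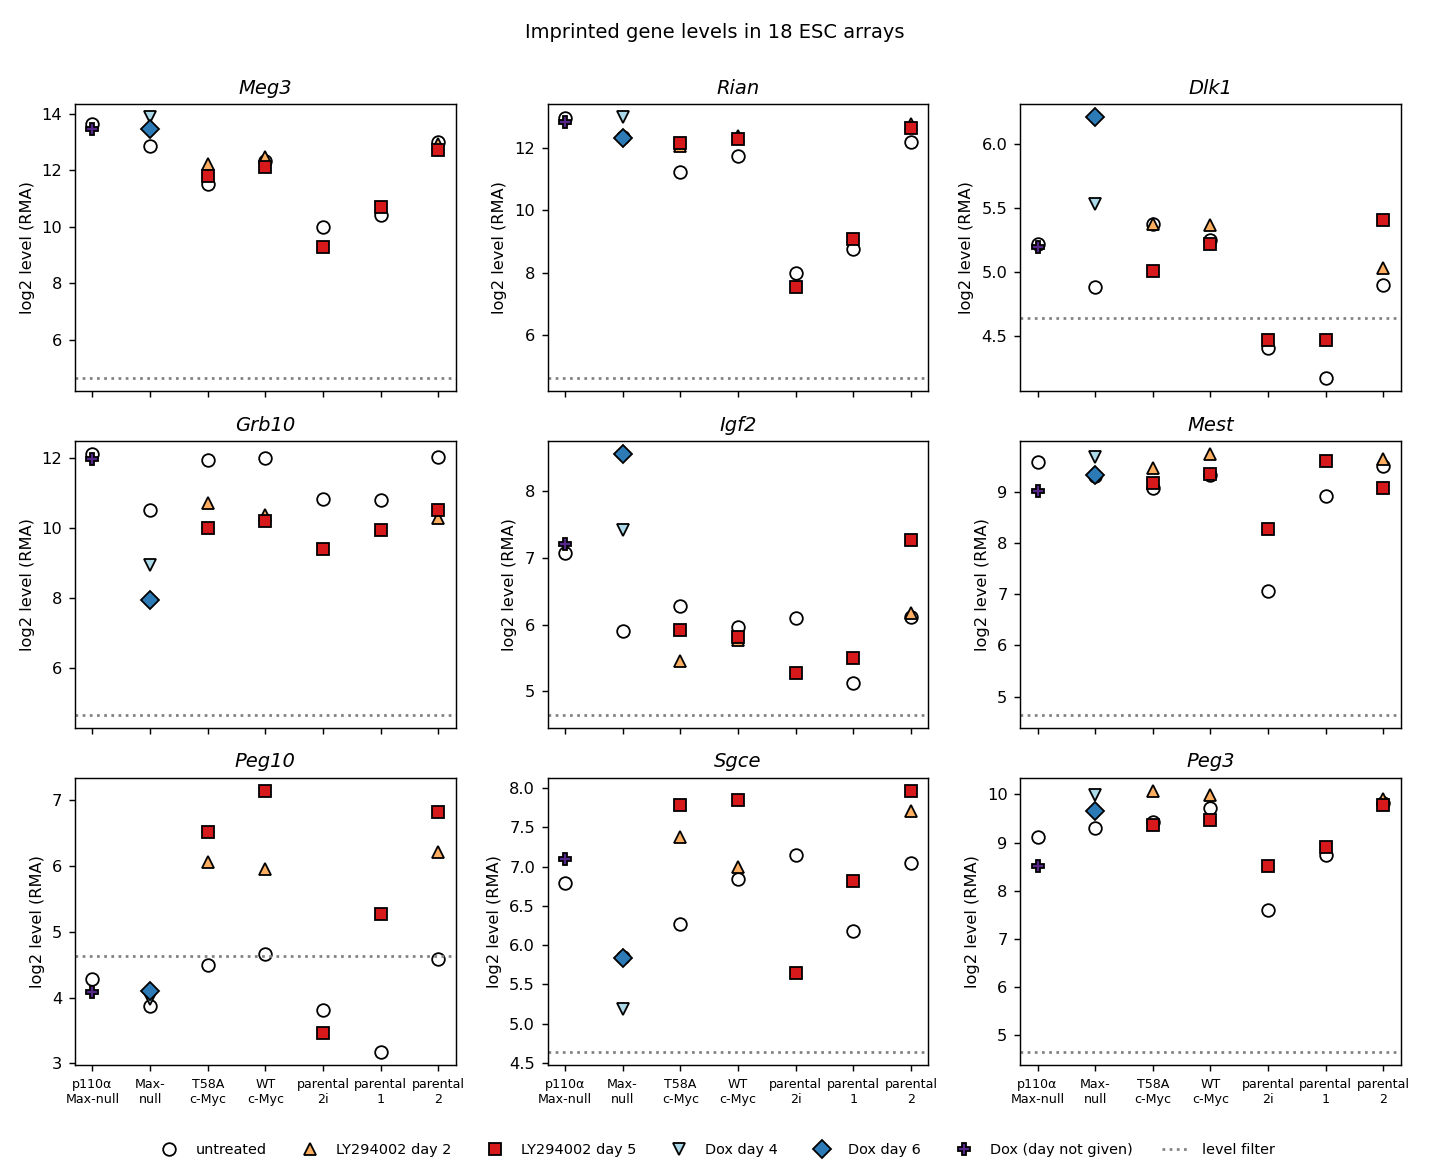
Log2 level (vertical axis) of 9 imprinted genes in 7 lines or replicates (horizontal axis), 1 array a point, with the treatment as symbol and the level filter as a dotted line. Parental 2i and parental 1 sit low in Meg3 and Rian. Peg10 rises clearly above the filter line only with LY294002 in serum and lies near or below it elsewhere. Grb10 is lower with LY294002 in each EBRTcH3 line.

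LY294002 in serum moved a few members strongly and left most near their untreated level. Peg10 was higher at day 5 in every line, above untreated levels that lay near or below the filter. Its neighbour Sgce rose and Grb10 fell in the c-Myc lines. The others, Igf2, Mest, Peg3, Dlk1, Meg3 and Rian, did not pass there at day 5.

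Peg10 read 5.27 at day 5 in parental replicate 1, against 3.17 untreated. In parental replicate 2 it read 4.58 untreated, 6.21 at day 2 and 6.82 at day 5. The wild-type c-Myc line read 4.66, 5.96 and 7.14 and the T58A line 4.50, 6.07 and 6.51 at the same times. Every treated serum sample lay above every untreated one. All untreated levels but that of the wild-type c-Myc line lay below the filter, so Peg10 was tested because its treated levels were high, and its size of change is only bounded. Counted from the filter level, the mean rise was at least 1.40 in the parental pairs and at least 2.18 in the c-Myc lines. The 8-sample fit of limma with the pair as a block, on the values as deposited, gave 2.17 ± 0.15 (SE, adjusted p = 0.0438) and 2.25 ± 0.15 (adjusted p = 0.031), which are not bounds. It was the 1 member of 9 called in the parental pairs, where 0.529% of 13412 genes were called and 0.112% were higher, a share against which a member tested through its high group is not read. Without either c-Myc line that parental call was lost (adjusted p = 0.114 without the wild-type line and 0.116 without T58A), while the difference stayed at 2.17. It was also lost without the pair block (adjusted p = 0.29).

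Markers of trophoblast, the tissue in which Peg10 is needed, were set beside these values. In parental replicate 1 the 9 measured markers summed to 1281 at day 5, against 1452 untreated, with 4 against 5 above the filter. In parental replicate 2 they summed to 2098 untreated, 1499 at day 2 and 2854 at day 5, in the wild-type c-Myc line to 1297, 885 and 2189, and in the T58A line to 1467, 1151 and 2119, with 5 or 6 above the filter. Of 5 tested in these 3 lines, Eomes (0.68), Cdx2 (0.54) and Krt8 (1.99) rose at day 5 (limma adjusted p = 0.00521, 0.00599 and 0.015). Of all 13425 genes, 44.1% were called at day 5 and 25.7% were higher. At day 2, when Peg10 was already higher, none of the 5 passed, where 30.5% of genes did. The median of the 5 at day 5 was 0.54, beside 0.05 over all genes. Their part in the Peg10 levels was not tested.

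Sgce, next to Peg10 on chromosome 6, read 7.79 at day 5 in the T58A line, against 6.26 untreated. The wild-type c-Myc line read 7.85 at day 5, against 6.84 untreated. Sgce rose by 1.27 ± 0.17 in these lines (limma adjusted p = 0.0492). In the parental replicates it read 6.82 and 7.96 at day 5, against 6.19 and 7.04 untreated, a difference of 0.77 ± 0.17 that missed the threshold (adjusted p = 0.125). Its second probe set was above the filter on 1 array, so the Sgce values rest on 1 probe set, and with the mean of both the c-Myc difference was 0.59 (adjusted p = 0.0727).

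Grb10 read 10.00 in T58A and 10.20 in wild-type c-Myc ESCs at day 5, against 11.95 and 12.01 untreated. It fell by 1.88 ± 0.19 on the log2 scale in these lines (limma, adjusted p = 0.0399). With the mean of its 3 probe sets the difference was -1.71 and missed the threshold (adjusted p = 0.0504). The parental replicates read 9.96 and 10.53 at day 5, against 10.82 and 12.05 untreated. That parental difference of -1.19 ± 0.19 missed the threshold (adjusted p = 0.087), although both pairs and all 3 probe sets in both were lower at day 5. Leaving out either parental replicate gave a call (-1.53, adjusted p = 0.00357, without replicate 1, and -0.86, adjusted p = 0.0252, without replicate 2), in fits where a lone parental pair is assumed to vary like the c-Myc lines.

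In the c-Myc lines 3 of 9 members were thus called, 2 higher and 1 lower, where 2.62% of genes were called, 1.09% higher and 1.53% lower. Peg10, 1 of the 2 higher, was tested through its high group and is not read against that share. Each of the 3 calls was lost when either c-Myc line was left out, with the direction kept, and without the pair block. Rian changed by 0.74 ± 0.14 there and missed the threshold (adjusted p = 0.0644). The median change of the 9 members was 0.38 in the parental pairs, beside 0.04 over all genes, and 0.03 in the c-Myc lines, beside 0.04.

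None of the 9 members differed between the c-Myc lines and the parental pairs in its day 5 change (limma, smallest adjusted p over all genes 0.996), nor did any other gene (0%). At an unadjusted p under 0.05 stood 458 genes, Igf2 and Dlk1 among them. Igf2 read 5.91 and 5.81 at day 5 in the T58A and wild-type c-Myc lines, against 6.28 and 5.96 untreated. In parental replicates 1 and 2 it read 5.49 and 7.27 at day 5, against 5.12 and 6.11 untreated. All 4 pairs moved in the direction of their line type, with a difference between line types of -1.03 ± 0.31 (adjusted p = 0.996). Without parental replicate 2, with the spread from the c-Myc lines alone, Grb10 fell more in the c-Myc lines than in the remaining parental pair (-1.02, adjusted p = 0.0307).

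Mest and Meg3 went opposite ways in the parental replicates. Mest read 9.60 and 9.08 at day 5 in replicates 1 and 2, against 8.92 and 9.52 untreated. Meg3 read 10.70 and 12.71 at day 5, against 10.41 and 12.99 untreated, and all 11 Meg3 probe sets followed, up in replicate 1 and down in replicate 2. Their fitted parental changes were 0.12 ± 0.28 and 0.01 ± 0.20 (limma adjusted p = 0.82 and 0.985).

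In the 3 lines sampled at both days, the same members passed at day 2 and at day 5, namely Peg10, Sgce and Rian, which rose, and Grb10, which fell. Parental replicate 2 and both c-Myc lines are on arrays of 1 set, and the 9-sample fit of limma had line as a block. At day 2, 4 of 9 members passed, 3 higher and 1 lower, where 30.5% of 13425 genes did (18.3% higher and 12.2% lower). At day 5, 4 passed again, 3 higher and 1 lower, where 44.1% of genes did (25.7% higher and 18.5% lower). The members' share was thus close to that of all genes. Peg10, among the higher at both days, was tested through its treated levels and is not read against these shares. Counted from the filter, Peg10 rose by at least 1.43 on average at day 2 and by at least 2.18 at day 5 (adjusted p = 0.000609 and 8.95e-05 on the values as deposited). Its day 5 level, above the filter like that at day 2, exceeded day 2 by 0.74 ± 0.13 (adjusted p = 0.0411), and Peg10 was the only one of 9 members called between the days, where 2.27% of genes were. That last call was lost without any 1 of the 3 lines (adjusted p = 0.051 to 0.333).

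Grb10 read 12.05 untreated, 10.29 at day 2 and 10.53 at day 5 in parental replicate 2. In the wild-type c-Myc line it read 12.01, 10.37 and 10.20, and in the T58A line 11.95, 10.72 and 10.00. No treated sample reached an untreated one. The fall was -1.54 ± 0.16 at day 2 (limma adjusted p = 0.00083) and -1.76 ± 0.16 at day 5 (adjusted p = 0.000238), and day 5 differed from day 2 by -0.22 ± 0.16 (adjusted p = 0.446).

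Rian read 12.19 untreated, 12.76 at day 2 and 12.61 at day 5 in parental replicate 2. It read 11.72, 12.37 and 12.28 in the wild-type c-Myc line and 11.23, 12.05 and 12.15 in the T58A line. Within each line both days were above the untreated sample, though the untreated parental sample lay above both treated T58A samples. Rian rose by 0.68 ± 0.10 at day 2 (limma adjusted p = 0.00287) and by 0.63 ± 0.10 at day 5 (adjusted p = 0.00203). With the mean of its 4 probe sets the day 5 change was 0.30 and missed the threshold (adjusted p = 0.06), and 2 of 4 probe sets were lower at day 5 in parental replicate 2. Meg3, its neighbour, changed by 0.25 ± 0.14 at day 2 and -0.07 ± 0.14 at day 5 and passed at neither (adjusted p = 0.212 and 0.696).

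Sgce rose by 0.65 ± 0.17 at day 2 (limma adjusted p = 0.0262) and by 1.15 ± 0.17 at day 5 (adjusted p = 0.0016). In the wild-type c-Myc line it read 6.84 untreated, 7.00 at day 2 and 7.85 at day 5, so most of its rise there came after day 2. Its day 2 call was lost without parental replicate 2 (adjusted p = 0.0836) and without the T58A line (adjusted p = 0.127). Mest, Peg3, Igf2 and Dlk1 passed at neither day, with changes between -0.32 and 0.33.

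**Figure D3:**
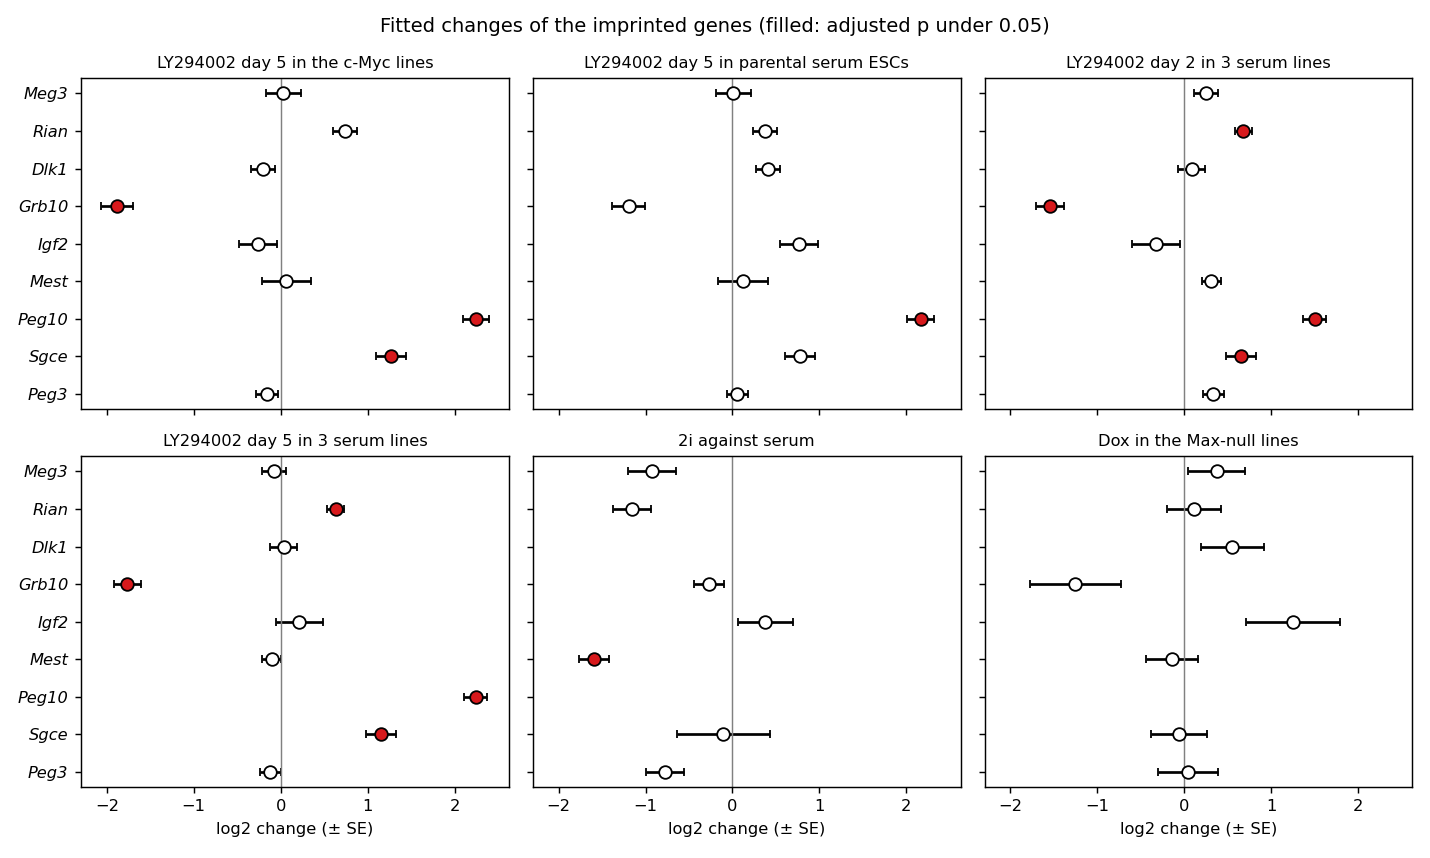
Fitted log2 change (horizontal axis, ± SE) of up to 9 imprinted genes (vertical axis) in 6 comparisons. Filled points have an adjusted p under 0.05. Peg10, whose sizes rest in part on untreated levels below the filter, is filled in each LY294002 panel, Grb10 in 3 of them, and Mest alone in the panel of 2i against serum.

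Other imprinted genes on a list of 67, of which 58 were measured, moved both ways under LY294002. At day 2 in the 3 lines 12 of 50 rose and 11 fell, and at day 5 14 rose and 15 fell. All 23 and 29 calls stand beside shares of 30.5% and 44.1% over all genes. Their median change at day 5 was -0.02, beside 0.05 over all genes. The 6 with the smallest p-values at day 5 were Pon2 (1.52 ± 0.08), Peg12, Atp10a (2.47 ± 0.19), Ppp1r9a (0.74 ± 0.07), Phlda2 (-1.92 ± 0.17) and Kcnq1ot1 (-1.29 ± 0.13). Peg12 read 3.21 to 3.38 untreated, 3.86 to 4.07 at day 2 and 4.68 to 5.19 at day 5 in the 3 lines. It was above the filter only at day 5, so no size is given. Since it was tested through that high group alone, its calls and its place in these counts are not read. Among larger p-values stood larger changes than that of Ppp1r9a, such as those of Ndn (1.39), Magel2 (1.18) and Calcr, which counted from the filter rose by at least 1.53 on average. Calcr was below the filter in all 3 untreated lines and was tested through its treated levels, so its place in these counts is not read either. Pon2 and Ppp1r9a belong to the cluster of Peg10 and Sgce, and Phlda2 and the noncoding Kcnq1ot1 lie in the Kcnq1 cluster. At day 2 the smallest p-values were those of Atp10a (1.89), Sfmbt2 (-0.89), Pon2 (0.70), Cd81 (-0.78), Phlda2 (-1.29) and Peg12. Pon2 rose further from day 2 to day 5, by 0.82. The other called between the days was Peg12, tested only through its day 5 levels. In the 8-sample fit Atp10a (2.64), Pon2 (1.57), Peg12, Phlda2 (-1.72) and Cd81 (-0.79) were called in the c-Myc lines. These were 5 of 48, where 2.62% of genes were called. None of 48 was called in the parental pairs, where Phlda2 (-1.95) and Calcr differed most, Calcr from untreated levels below the filter.

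Genes on the imprint maintenance list write or guard the methylation mark or, as the Tet enzymes do, oxidise it. Of 19, 5 rose and 5 fell at day 2, where 30.5% of all genes were called, and 3 rose and 8 fell at day 5, where 44.1% were. Dppa3, which shields methylation in the early embryo, rose by 2.57 at day 2 and 3.51 at day 5, and the de novo methyltransferases Dnmt3a (1.67 and 1.58) and Dnmt3b (1.62 and 1.73) rose at both days. Tet2 (-0.77), Zfp445 (-0.53) and Zfp42 (-0.64) fell at day 5, and Dppa3 rose from day 2 to day 5 by 0.95. In the 8-sample fit Dnmt3b (1.81) and Dnmt3a (1.70) were the 2 of 19 called in the c-Myc lines, where 2.62% of genes were. In the parental pairs none of 19 passed, with Dppa3 (2.16) and Dnmt3b (1.40) differing most.

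Around Igf2 and Grb10, 9 of 16 insulin and IGF pathway genes rose at day 5 in the 3 lines and 2 fell, with a median of 0.46, where 25.7% of all genes rose and 18.5% fell. The receptor Insr rose by 0.81, the binding proteins Igfbp2 and Igfbp3 by 1.06 and 1.06, and the receptor substrates Irs1 and Irs2 by 0.99 and 1.18. Grb14, the relative of Grb10, was below the filter in all 3 untreated lines and rose by at least 1.08 on average, counted from the filter. Since Grb14 was tested through its treated levels, its place in the median and in the counts of both days is not read. At day 2, where 18.3% of all genes rose and 12.2% fell, 8 rose and 1, the IGF2 scavenger receptor Igf2r, fell (-0.50). Igfbp3 (1.09) was the 1 of 16 called in the c-Myc lines, where 2.62% of genes were. In the parental pairs none passed, Irs2 (1.31) and Irs1 (1.17) differing most. Around Dlk1, 7 of 11 tested Notch pathway genes rose and 2 fell at day 5 in the 3 lines, and 3 rose and 2 fell at day 2.

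In 2i medium the day 5 pair of the parental ESCs looked different, with 1 sample each and no test. Peg10 read 3.46 at day 5, against 3.81 untreated, both below the filter. Sgce read 5.64 at day 5, against 7.15 untreated, and Grb10 9.40 at day 5, against 10.83. Mest read 8.27 at day 5, against 7.07 untreated, and Peg3 8.51, against 7.59. Of 7 members above the filter, 3 differed at least 2-fold (Sgce and Grb10 lower, Mest higher), where 2.67% of 12635 genes did. Igf2 read 5.27 against 6.10, Meg3 9.26 against 10.00 and Rian 7.54 against 7.99, each with the treated sample first and lower.

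The change in 2i was set against that of the parental serum pairs in a 10-sample fit of limma that assumes the lone 2i pair to vary like the serum pairs. None of 9 members passed and 0% of 13585 genes did, with a smallest adjusted p of 0.405, and 890 genes had an unadjusted p under 0.05. Sgce differed by -2.28 ± 0.30 (adjusted p = 0.428). Peg10 lay below the filter in both 2i samples and both untreated parental serum samples, so no size of its difference is given. Without parental replicate 1, with the spread from the c-Myc lines alone, the differences were -2.42 for Sgce, -1.99 for Igf2, 1.65 for Mest and 0.97 for Peg3. Grb10 changed alike in sign, -1.42 in 2i and -0.86 and -1.53 in the serum replicates, and its difference was -0.23 ± 0.33. Of the other imprinted genes Pon2 (-2.31) and Cdkn1c (-2.22) differed most and none of 49 passed.

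2i medium was also set against serum in parental replicate 1, at matched LY294002, in 4 arrays of the lower set with 1 residual degree of freedom. Each medium had 1 array untreated and 1 at day 5. The spread of this fit is how far the medium difference varied between these 2 states, so its p-values do not cover the spread between cultures. Mest was lower in 2i and was the 1 of 7 members that passed, where 6.83% of 12460 genes did and 3.15% were lower. Mest read 8.27 at day 5 and 7.07 untreated in 2i, against 9.60 and 8.92 in serum. It fell by 1.59 ± 0.17 on the log2 scale in 2i (limma adjusted p = 0.0284), and without the level filter the call was lost (adjusted p = 0.0522). Rian read 7.54 and 7.99 in 2i, against 9.09 and 8.75 in serum, a difference of -1.16 ± 0.22 just short of the threshold (adjusted p = 0.0604). It passed under 4 alternative settings, among them quantile normalization (-1.18, adjusted p = 0.0367). Meg3 differed by -0.92 ± 0.27 and Peg3 by -0.77 ± 0.22 (limma adjusted p = 0.126 and 0.113). Sgce was higher in 2i without LY294002, 7.15 against 6.19, and lower with it, 5.64 against 6.82.

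Among the related genes, Dnmt3l (-1.74), Dnmt3b (-1.86) and Dnmt3a (-1.84) fell in 2i, the 3 called of 19 imprint maintenance genes. Of all 12460 genes, 6.83% were called in this comparison, 3.15% were lower and 459 genes were higher. Sfmbt2 (1.28) and Ddc (1.10) rose among 42 other imprinted genes, and none fell. Igfbp2 (0.91) rose and the receptor Igf1r (-0.74) and Irs2 (-0.79) fell among 14 insulin and IGF genes.

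Dox in the Max-null lines gave no call in any gene at this size. In the 5-sample fit with line as a block, none of 8 members passed and 0% of 13536 genes did, the smallest adjusted p being 0.561 (limma), while 701 genes had an unadjusted p under 0.05. The 2 lines differed in the size of their changes. In plain Max-null ESCs Grb10 was lower and Igf2 higher at both days, and in p110 alpha ESCs no member differed 2-fold on its brightest probe set.

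Grb10 read 11.99 with Dox in the p110 alpha line, against 12.11 without, while 1 of its 2 other probe sets differed by -1.11. In the plain Max-null line it read 10.53 untreated, 8.93 at day 4 and 7.93 at day 6, below every other array in the series at both days. On the other Grb10 probe sets the plain line differed less, by -0.93 and -1.05 at day 4 and day 6 on the one that differed by -1.11 in the p110 alpha line, and by -1.03 and -0.20 on the third. The third read 6.13 with Dox in the p110 alpha line, against 6.41 without. Of the 3 Grb10 probe sets only the brightest thus showed the gap between the lines at both days. Igf2 read 7.21 with Dox in the p110 alpha line, against 7.07 without, and 5.90 untreated, 7.43 at day 4 and 8.56 at day 6 in the plain line. The day 6 value was the highest Igf2 level of the 18 arrays. Over both lines Grb10 changed by -1.25 ± 0.53 and Igf2 by 1.26 ± 0.54 (both adjusted p = 0.80). Without the p110 alpha line the differences were -2.10 for Grb10 (limma adjusted p = 0.0117) and 2.09 for Igf2 (adjusted p = 0.0144). That fit sets both Dox days against 1 untreated array, so its spread is that between day 4 and day 6 alone and these p-values do not cover the spread between cultures.

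The difference between the lines was tested in a fit with an interaction term and 1 residual degree of freedom, added after the data were seen. Its spread comes from day 4 against day 6 of the plain line, since each state of the p110 alpha line is 1 array, so its p-values do not cover the spread within either line's state. Grb10 differed by 1.97 ± 0.65 (limma adjusted p = 0.155) and Igf2 by -1.96 ± 0.68 (adjusted p = 0.176), p110 alpha minus plain Max-null. None of 8 members passed, where 1.9% of genes did. Dlk1 read 5.20 with Dox in the p110 alpha line, against 5.22, and 4.88, 5.53 and 6.21 untreated, at day 4 and at day 6 in the plain line. Meg3 read 13.45 with Dox, against 13.64, in the p110 alpha line and 12.86, 13.86 and 13.45 in the plain line, where all 11 probe sets were above their untreated value at both days. In the p110 alpha line all 11 were lower with Dox, by -1.08 to -0.19, and 3 of them differed at least 2-fold (-1.08, -1.03 and -1.02). Peg10 stayed below the filter on all 5 arrays.

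At least 2-fold from their own untreated sample were 0 of 8 members in the p110 alpha line, where 2% of 13263 genes were. In the plain line 3 of 8 were at day 4 (Igf2 and Meg3 higher, Grb10 lower), where 13.9% of 13461 genes were, and 3 of 8 at day 6 (Igf2 and Dlk1 higher, Grb10 lower), where 24.5% of 14020 were.

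Other measures moved with the plain line under Dox. Of 10 primitive and visceral endoderm markers, 8 in the p110 alpha line with Dox, against 7 without, and 4, 7 and 8 in the plain line untreated, at day 4 and at day 6 were above the filter. Their summed linear level was 389 against 400 in the p110 alpha line and 278, 403 and 655 in the plain line. Foxa2 reached 7.55 at day 6 and Gata4 stayed below the filter in the plain line. The 10 fibroblast markers summed to 340 against 294 in the p110 alpha line and 310, 334 and 612 in the plain line, where Acta2 reached 8.03 and Col3a1, Lum and Postn stayed below the filter. The 3′ minus 5′ Gapdh signal, a measure of RNA integrity, was 0.18 against 0.15 in the p110 alpha line and 0.16, 0.30 and 0.41 in the plain line. Of 9 trophoblast markers measured, 6 in the p110 alpha line with Dox, against 5 without, and 6, 6 and 6 in the plain line were above the filter, and they summed to 1113 against 1426 and to 1808, 1364 and 2121. Among them Krt8 read 8.09 against 7.75 in the p110 alpha line and 7.44, 8.45 and 10.29 in the plain line. The 7 mesoderm markers measured summed to 279 against 272 and to 214, 285 and 417, with 5 against 5 and 4, 5 and 6 above the filter. Their part in the changes of Grb10, Igf2 and Dlk1 was not tested. In parental replicate 2 Acta2 read 4.79 untreated, 6.11 at day 2 and 7.11 at day 5 of LY294002, beside 6.11, 6.18 and 7.27 for Igf2. The summed fibroblast markers read 229, 332 and 431 there. In the untreated p110 alpha line Igf2 read 7.07, where these markers summed to 294. The part of these markers in the Igf2 levels was not tested either.

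Among 46 other imprinted genes under Dox in both lines none passed, with Magel2 (1.63) and Phlda2 (-1.47) differing most. Cdkn1c, a maternally expressed inhibitor of the cell cycle, was the 1 of them past the threshold between the lines (-3.52 ± 0.53, limma adjusted p = 0.0103), with the spread of that fit as above. It read 6.69 with Dox in the p110 alpha line, against 8.56 without, and 7.62, 9.50 and 9.05 untreated, at day 4 and at day 6 in the plain line. Igfbp3 (-2.59, adjusted p = 0.032) was the 1 such gene of 17 in the insulin and IGF list. Across both lines none of those 17 passed (Igfbp3 at 1.92 and Insr at -1.12 differed most), and none of 19 imprint maintenance genes (Dppa3 at 1.50 and Dnmt3a at 0.78).

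**Figure D4:**
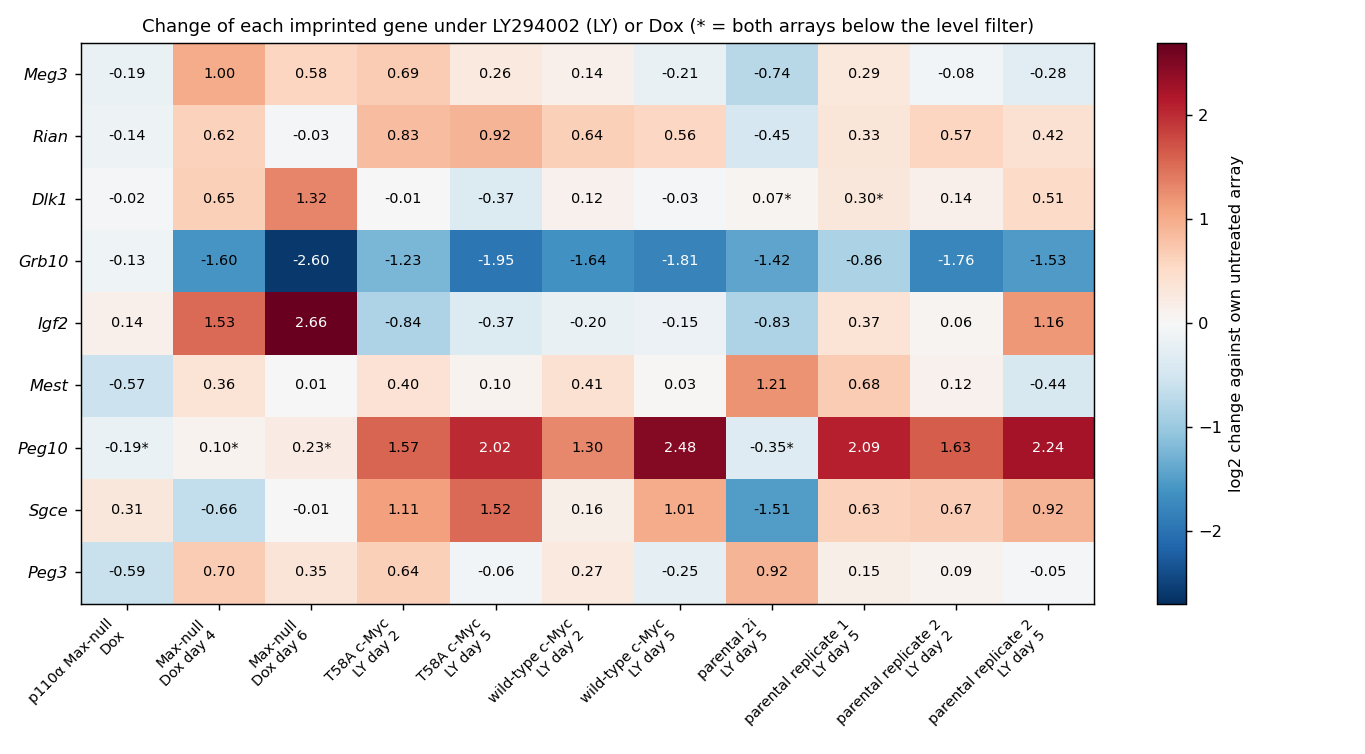
Log2 change of each of 9 imprinted genes (rows) in the 11 treated arrays (columns) against their own untreated array, with red for higher and blue for lower. Peg10 is red in every serum array with LY294002 and Grb10 blue there and in plain Max-null cells with Dox, while the p110 alpha column is pale throughout.

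The probe set shared by H19 and Mir675 read 3.34 to 4.84 over the 18 arrays. Only the plain Max-null line at day 6 of Dox, at 4.84, was above the filter, so no change was tested.

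Genes with the most similar pattern were looked up for 4 members by Pearson correlation over the 18 arrays, after centring, among 14067 genes. The arrays share lines, treatments and the 2 array sets, so the values only describe. Rian was most like 2810408B13Rik (r = 0.977), Zmym5 (0.968) and Nufip2 (0.967). Meg3 was most like its cluster neighbour Mirg (0.959), Smc2 (0.954) and Srp54b (0.942). Peg10 was closest to Gm16136 (0.954), Rcbtb2 (0.952) and Hs6st2 (0.945), and Igf2 to Clu (0.913), Jun (0.884) and Flnc (0.872).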

How the data were processed

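Per the labels' protocols, RNA was extracted with TRIzol and biotin-labelled cRNA was read on 1 Affymetrix array per sample. The deposited log2 values were made by the authors with RMA in the affy package, per the submitters' processing notes, with versions and settings not given in the sources used here. Of 45101 probe sets, 64 were controls, 34945 named 1 gene, 932 several and 9160 none in the platform annotation, which can be old, and 34741 were matched to a RefSeq gene by identifier. Each of 18194 genes was read on its brightest probe set over 18 arrays (9009 genes had several). Genes with fewer than 2 samples of a fit above the 40th percentile were left out of it.

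Fits used limma 3.58.1 (lmFit, eBayes) in R 4.3.3, with 2-sided p-values Benjamini-Hochberg adjusted over all genes of a comparison at a threshold of 0.05. Treated samples were paired with the untreated sample whose description names them, and the pair or line was a block. As a check, the difference between the parental pairs in untreated samples correlated over genes with that at day 5 at r = 0.563, and between the c-Myc lines at 0.172. Comparisons of 1 sample each were counted at 2-fold without a test. No 2 arrays held identical values. Precision is limited by how many arrays there were. The fits were tested on simulated data.

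The members and gene lists were chosen with earlier results of these data known. Every member that passed a comparison is named there, while some that did not pass are left unnamed. Of the other lists those that passed are named, at most 6 by p-value, or else the 2 with the largest difference. For likeness the 3 highest correlations are named. Genes named beyond this were chosen after their values were seen. Both between-line fits of the day 5 change in 2i and of the Dox change were added after seeing the data. Alternatives changed the filter, scaling, probe set, prior, block and samples. Changes counted from the filter level, with lower values set to it, were added after seeing the data. Promoters came from the RefSeq table for GRCm38.p6, with windows of equal position merged.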

Additional observations from a re-analysis of the deposited data

Results flagged for a closer look

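For several members the change went one way in every sample of one group and the opposite way in every sample of another. The share of all genes that did so was not counted, so these members are not read as unusual. For the day 5 change of Igf2, the c-Myc lines minus the parental pairs came to -1.03 (limma adjusted p = 0.996 for the difference). For the day 5 change in 2i minus that of the parental serum pairs, the difference was -2.28 for Sgce, -0.83 for Rian and -1.60 for Igf2 (limma adjusted p = 0.428, 0.70 and 0.668). For the Dox change in the p110 alpha line minus that in the plain Max-null line, it was 0.64 for Sgce, -0.98 for Meg3, -1.12 for Peg3, -0.76 for Mest and -1.01 for Dlk1, with limma adjusted p between 0.314 and 0.628. None of these differences passed its test. Some of the opposite Dox changes were very small, such as -0.02 for Dlk1 in the p110 alpha line and -0.01 for Sgce at day 6 in the plain line. In the same Dox comparison 3 genes of the lists were past the threshold, namely Cdkn1c at -3.52, Igfbp3 at -2.59 and the Notch ligand Dll1 at -3.79. The spread in that fit is between day 4 and day 6 of the plain line alone, with 1 array for each state of the p110 alpha line, so these p-values do not cover the spread within a state. With at most 2 samples in a group, no group was large enough to look for a single outlying sample.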

How the results depend on the processing

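Of the members' changes in the comparisons, 833 values under the alternatives kept direction and side of the threshold, 28 passed newly, 26 no longer passed and 31 turned direction, and the cause was not tested beyond the settings' own construction. For the number of members called, 88 values stayed within 1.5 times and 25 did not. Without the replicate block the number called was 0 for LY294002 day 5 in parental ESCs (1 with it), 0 in the c-Myc lines (3), 2 at day 2 in the 3 lines (4), 0 between the days (1) and 0 for 2i against serum (1). For 2i against serum it was 2 at the 60th percentile filter, 2 with quantile normalization, 2 with the mean of probe sets, 2 with a trended, robust prior and 0 with no level filter. The mean of probe sets gave 1 in the c-Myc lines and 1 member past 2-fold for LY294002 in 2i (3), and the trended, robust prior gave 3 between the days.

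Leaving out each replicate gave 0 to 5 members for parental day 5 (5 without parental replicate 1, 0 without either c-Myc line), 0 to 4 in the c-Myc lines and 0 to 1 for their difference. It gave 0 to 1 between the days, 0 to 2 for Dox, 0 to 1 for untreated Max-null lines and 0 to 5 for 2i against serum in the day 5 change. With the mean of probe sets, Meg3 turned to -0.082 in parental ESCs at day 5, -0.24 in the c-Myc lines, -0.16 in their difference and -0.033 at day 2. Dlk1 turned to 0.11 in the c-Myc lines and Grb10 to 0.12 for 2i against serum in the day 5 change. On its second probe set, below the filter on 17 arrays, the Sgce change turned to -0.25 in T58A at day 2, -0.17 at day 5 and -0.0004 in wild-type c-Myc at day 5. Under leaving out replicates, uncalled members turned within these ranges: in parental ESCs Meg3 -0.28 to 0.29, Mest -0.44 to 0.68 and Peg3 -0.047 to 0.15, and in the c-Myc lines Meg3 -0.21 to 0.26. In their difference they were Peg10 -0.15 to 0.31, Meg3 -0.27 to 0.30 and Mest -0.62 to 0.50. At day 5 in the 3 lines they were Dlk1 -0.20 to 0.24, Igf2 -0.26 to 0.51, Meg3 -0.24 to 0.027 and Mest -0.20 to 0.064. Between the days they were Dlk1 -0.26 to 0.11, Grb10 -0.45 to 0.031 and Rian -0.12 to 0.0044. Under Dox they were Mest -0.28 to 0.19, Peg3 -0.12 to 0.52, Sgce -0.34 to 0.15 and Rian -0.086 to 0.29, the last 3 turning without day 4. In untreated Max-null lines they were Dlk1 -0.29 to 0.046, Grb10 -1.48 to 0.11, Igf2 -0.22 to 0.95 and Sgce -0.86 to 0.078, and for 2i in the day 5 change Grb10 -0.56 to 0.10.

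Counts over all genes moved as well. Parental day 5 had 71 calls, 0 without the block and 0 to 4706 without 1 replicate. The c-Myc lines had 351, 533 at the 60th percentile filter, 44 without the block and 0 to 5528 without 1 replicate, and their difference from parental 0 to 1338. Day 2 had 4095, 2663 without the block and 1009 without the wild-type c-Myc line. Day 5 had 5922 and 2884 without that line. Between the days there were 305, then 525 at the 60th percentile, 712 with the trended prior, 57 without the block and 0 to 877 without 1 replicate. Dox had 0, then 1463 without the p110 alpha line and 56 without day 4. For 2i against serum there were 851, then 1375 at the 60th percentile, 152 with no filter, 1288 with quantile normalization and 1 without the block. Untreated Max-null lines had 35 and 1 to 880 without 1 replicate, and the 2i difference 0 to 2979. The p110 alpha difference had 257, then 139 with no filter, 526 with centred arrays and 91 with quantile normalization. Leaving out a replicate was not possible for 2i against serum, nor was the plain Max-null line under Dox, for want of residual degrees of freedom.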
